A study of Mus musculus with 6 samples.

Results

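The 10 genes described here encode RNA-binding proteins that set epithelial and mesenchymal patterns of alternative splicing, and they were chosen by name from the 19933 genes measured. They are *Esrp1*, *Esrp2*, *Rbm47*, *Rbfox2*, *Mbnl1*, *Mbnl2*, *Mbnl3*, *Ptbp1*, *Ptbp2* and *Celf2*, each represented by its brightest probe set, and all 10 were measured. The question was how these genes differed between breast cancer cells that had survived chemotherapy and the line they came from. MR13 cells (3 arrays) descend from 4T1 cells that outlived methotrexate (MTX), a folate antagonist. WTR- cells (3 arrays) are untreated 4T1 cells, a mammary carcinoma line of BALB/c mice. The labels give no genetic modification for either group. The labels give 13 µg/ml MTX for up to 2 weeks, whereas the study's text names another concentration and a longer period and returned the survivors to drug-free medium. Both groups were grown as triplicate wells, and MR13 is 1 selected line, so p values measure the spread between wells and not between independent selections. RNA was hybridised to Affymetrix Mouse Gene 1.0 ST arrays, and the values are log2 signals with 1 value per probe set.

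Alternative splicing joins different exons of 1 gene into different messenger RNAs. ESRP1 and ESRP2 are the epithelial splicing regulatory proteins, which favour the exons used in epithelia, such as the epithelial receptor form of *Fgfr2*, and are typically lost during epithelial-mesenchymal transition (EMT). RBFOX2, the muscleblind proteins (MBNL), the polypyrimidine tract-binding proteins (PTBP) and the CELF proteins act on many of the same kinds of exon from other binding sites, and their balance differs between epithelial, mesenchymal, muscle and neural cells. The arrays measured the genes of these regulators and not the exons they choose, so inclusion of single exons is not part of these results.

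Pairs of arrays correlated across probe sets at r = 0.998 to 0.9987 within a group and 0.9842 to 0.9865 between the groups. Epithelial identity was checked with 12 marker genes, of which 11 were lower in MR13, against 20.6% of all genes. The simple keratin *Krt8* stayed bright in both lines (13.53 in MR13 and 13.41 in WTR-). *Krt18*, among the 11, did not pass after quantile normalization, without MR13 replicate 1 or 3 and without WTR- replicate 1 or 2. Of 9 mesenchymal markers, 7 were higher in MR13, against 17.0% of all genes, and none was lower. Of these, 2 rose by at least 2-fold, *Sparc* (log2 difference 1.17) and *Itga5* (1.05). *Vim*, *Fn1* and *S100a4* rose by 0.22 to 0.24. *S100a4* did not pass in an unmoderated test on its own variance, without MR13 replicate 3 or without WTR- replicate 1. *Tagln* did not pass in that test, without MR13 replicate 1 or without WTR- replicate 2 or 3. Of 7 fibroblast markers, *Pdgfra* (10.19 in MR13 and 8.37 in WTR-) and *Dcn* (6.87 in MR13 and 5.18 in WTR-) rose, whereas *Col1a1*, *Col1a2*, *Col3a1*, *Lum* and *Pdgfrb* did not pass the test. The pan-leukocyte marker *Ptprc* was dim in both (5.22 in MR13 and 5.17 in WTR-). Among 6 leukocyte markers *Ly6g* alone passed, as a rise of 1.14 (5.77 in MR13 and 4.63 in WTR-). *Itgam* also passed, as a fall, without MR13 replicate 1. *Csf1r* passed, as a fall, without WTR- replicate 2, after quantile normalization and with another eBayes prior. *Dcn* and *Ly6g* are not shown to be above background in WTR-, so their rises describe signal only. Averaged over each list, the log2 signal was 8.35 to 8.45 on MR13 arrays and 11.43 to 11.48 on WTR- arrays for epithelial markers. The same average was 9.53 to 9.56 on MR13 arrays and 9.03 to 9.14 on WTR- arrays for mesenchymal markers, whereas fibroblast markers averaged 6.68 to 6.82 on MR13 arrays and 6.13 to 6.22 on WTR- arrays. The part of these shifts in the results that follow was not tested.

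Of the 10 regulators, 4 were higher in MR13, 4 were lower and 2 did not pass the test. Both *Esrp* genes and *Celf2* fell by more than 2-fold and *Mbnl1* slightly, *Ptbp2* rose by more than 2-fold, and *Rbfox2*, *Mbnl2* and *Rbm47* rose by less. Calls were made at an adjusted p under 0.05 in the fit over all genes, which called 37.6% of them, 17.0% higher and 20.6% lower. Calls of at least 2-fold were made for 4 of the 10 regulators, against 4.06% of all genes. The groups of 3 arrays did not overlap for any of the 10, against 47.4% of all genes. The median log2 difference of the 10 was -0.06 and that of all genes 0.01, so the genes had no common direction. The median size of the difference, regardless of sign, was 0.47 for the 10 and 0.13 for all genes.

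**Figure D1:**
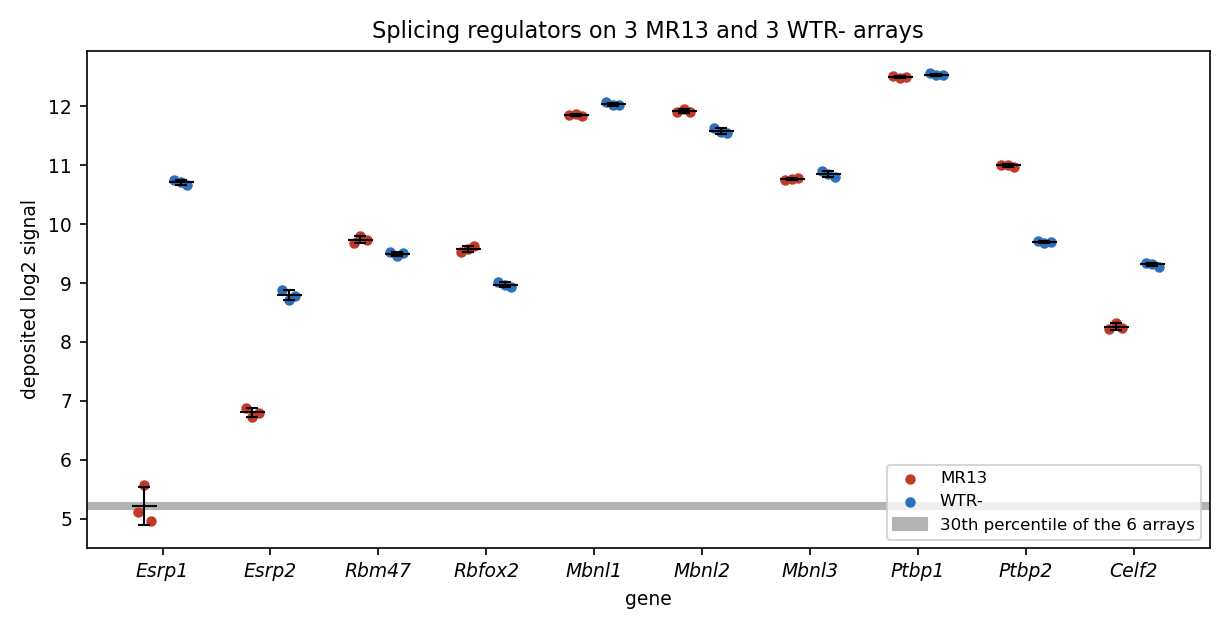
Deposited log2 signal (y axis) of the 10 splicing regulators (x axis) on 3 MR13 arrays (red, left of each pair) and 3 WTR- arrays (blue, right). Points are arrays, black bars are means and SDs, and the grey band is the 30th percentile of the arrays. *Esrp1* lies between 4.95 and 5.58 in MR13, around that band, and between 10.67 and 10.74 in WTR-.

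*Esrp1* (probe set 10511560, chromosome 4) had log2 signals of 5.11, 5.58 and 4.95 on the MR13 arrays, against 10.74, 10.72 and 10.67 on the WTR- arrays. The lowest WTR- value lay 5.09 above the highest MR13 value, and 2 of the 3 MR13 values were below the 30th percentile of their own array. The log2 difference was -5.50 (SE 0.14, 95% confidence interval -5.81 to -5.18, adjusted p = 1.48e-08), which corresponds to 45.1-fold lower signal in MR13. Only 1 of the 19933 genes had a larger fall in signal. At that level *Esrp1* is not shown to be above background in MR13, so the fold describes signal and can understate the difference in transcript. In a bulk culture, fewer *Esrp1*-expressing cells and less *Esrp1* RNA per cell cannot be told apart.

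The MR13 arrays also differed among themselves in *Esrp1* more than for nearly any other gene. Its SD there was 0.33, which 0.261% of genes exceeded, against a median SD of 0.07 over all genes. MR13 replicate 2 was the high array. On the WTR- arrays the SD of *Esrp1* was 0.04. Leaving out each array in turn kept the log2 difference between -5.68 and -5.37.

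*Esrp2* (probe set 10581455, chromosome 8), the paralog of *Esrp1* with overlapping targets, had signals of 6.88, 6.73 and 6.80 in MR13, against 8.88, 8.71 and 8.79 in WTR-. All MR13 values were lower by at least 1.83, and none of the 6 values was below the 30th percentile of its array. The log2 difference was -1.99 (SE 0.07, 95% confidence interval -2.14 to -1.84, adjusted p = 6.41e-08), a 3.97-fold lower signal, and 102 genes had a larger fall. Both *Esrp* genes therefore fell, with intervals that do not overlap, though the difference between the falls was not tested.

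*Rbm47* (probe set 10530269, chromosome 5), which encodes another epithelium-enriched RNA-binding protein and a cofactor of the cytidine deaminase APOBEC1, went the other way. Its signals were 9.68, 9.80 and 9.73 in MR13, against 9.53, 9.47 and 9.50 in WTR-. The MR13 values were higher by a margin of 0.15 between the nearest arrays. The log2 difference was 0.24 (SE 0.05, 95% confidence interval 0.11 to 0.36, adjusted p = 0.0072), or 1.18-fold, and 32.3% of all genes had a larger difference in either direction. *Apobec1* itself rose by 0.38 (SE 0.08, adjusted p = 0.0058), to 6.22 ± 0.04 in MR13, against 5.84 ± 0.17 in WTR- (SD, n = 3 each, limma), and lost its call in an unmoderated test on its own variance (adjusted p = 0.058). The other editing cofactor gene, *A1cf*, was near the lower end of the scale in both lines (3.30 in MR13 and 3.29 in WTR-).

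*Rbfox2* (probe set 10430145, chromosome 15) encodes a protein that binds UGCAUG and promotes many exons of the mesenchymal pattern. Its signals were 9.53, 9.58 and 9.64 in MR13, against 9.02, 8.97 and 8.93 in WTR-. Every MR13 array was above every WTR- array, by at least 0.51. The log2 difference was 0.61 (SE 0.05, 95% confidence interval 0.48 to 0.73, adjusted p = 2.81e-05), or 1.52-fold, and 874 genes had a larger rise.

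**Figure D2:**
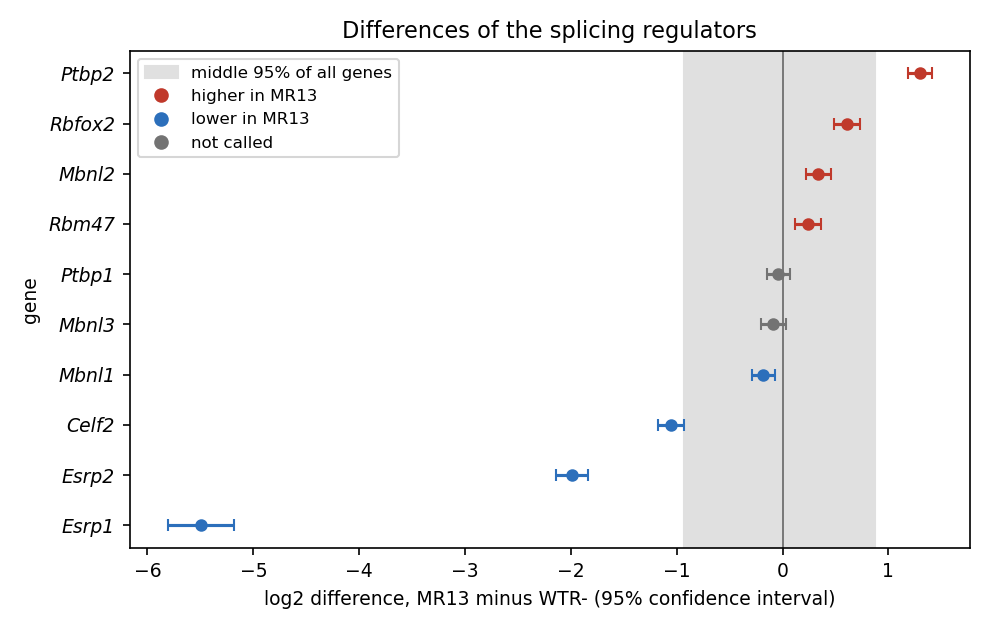
The 10 splicing regulators (y axis, from the largest rise to the largest fall) with their log2 difference, MR13 minus WTR- (x axis). Points are fitted differences with 95% confidence intervals, coloured by call, and the grey band holds the middle 95% of all genes, -0.93 to 0.88. *Ptbp2* lies above that band and *Celf2*, *Esrp2* and *Esrp1* below it.

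The muscleblind genes moved little and not together. MBNL proteins promote splicing patterns of differentiated tissues and are the proteins trapped by repeat RNA in myotonic dystrophy. *Mbnl2* (probe set 10417053, chromosome 14) had signals of 11.91, 11.95 and 11.91 in MR13, against 11.64, 11.56 and 11.55 in WTR-. It was higher in MR13 by 0.34 (SE 0.05, adjusted p = 0.00072), or 1.27-fold, with all MR13 arrays above all WTR- arrays.

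*Mbnl1* (probe set 10492310, chromosome 3) had signals of 11.85, 11.87 and 11.84 in MR13, against 12.07, 12.02 and 12.03 in WTR-. The difference was -0.18 (SE 0.05, 95% confidence interval -0.29 to -0.07, adjusted p = 0.016), and 39.9% of all genes had a larger difference in either direction. The call was lost without MR13 replicate 3 (-0.17, adjusted p = 0.058) and without WTR- replicate 1 (-0.17, adjusted p = 0.056), while the other alternatives kept it. *Mbnl3* (probe set 10604528, chromosome X), linked in mouse muscle cells to delayed differentiation, had signals of 10.74, 10.77 and 10.78 in MR13, against 10.90, 10.85 and 10.80 in WTR-. Although the arrays did not overlap, the nearest were 0.02 apart and the difference did not pass the test (-0.09, 95% confidence interval -0.20 to 0.03, adjusted p = 0.24). The interval reaches down to a fall of 0.20 and up to a rise of 0.03.

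Of the PTB pair, *Ptbp2* rose and *Ptbp1* did not pass the test. PTBP1 represses exons next to pyrimidine-rich tracts in most dividing cells, and 1 of its known targets is *Ptbp2*, whose messenger it marks for decay by skipping an exon. PTBP2 is the paralog that neurons raise when they lose PTBP1. *Ptbp2* (probe set 10501778, chromosome 3) had signals of 11.01, 11.01 and 10.97 in MR13, against 9.72, 9.68 and 9.70 in WTR-. The groups were 1.26 apart at their nearest arrays, with an SD of 0.02 in each. The log2 difference was 1.30 (SE 0.05, 95% confidence interval 1.19 to 1.41, adjusted p = 1.37e-07), a 2.46-fold higher signal, and 234 genes had a larger rise.

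*Ptbp1* (probe set 10364518, chromosome 10) had signals of 12.52, 12.48 and 12.50 in MR13, against 12.56, 12.53 and 12.53 in WTR-. The difference did not pass the test (-0.04, 95% confidence interval -0.15 to 0.07, adjusted p = 0.58). A second *Ptbp1* probe set, 10407390, gave means of 11.66 in MR13 and 11.69 in WTR-, and it did not pass either (-0.04, adjusted p = 0.63 over all probe sets with 1 symbol). The rise of *Ptbp2* stood beside a *Ptbp1* difference that did not pass the test on either probe set. A link between these genes was not tested, and PTBP1 protein was not measured. Of 9 neuronal and muscle marker genes, none was called higher (1, *Snap25*, without WTR- replicate 2) and *Map2* was lower. The average signal of these 9 markers was 6.15 to 6.28 on MR13 arrays and 6.12 to 6.30 on WTR- arrays.

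*Celf2* (probe set 10479950, chromosome 2) encodes a protein of the CUG-binding family that is prominent in heart, brain and T cells and opposes MBNL proteins on some exons. Its signals were 8.21, 8.33 and 8.24 in MR13, against 9.34, 9.32 and 9.28 in WTR-. All MR13 arrays were lower, by at least 0.95. The log2 difference was -1.05 (SE 0.05, 95% confidence interval -1.18 to -0.93, adjusted p = 9.49e-07), a 2.08-fold lower signal, and 375 genes had a larger fall. A second probe set, 10479948, averaged 3.72 in MR13 and 3.65 in WTR-, close to or below the 10th percentile of the arrays (3.76 to 3.80), and showed no such difference (0.07, adjusted p = 0.66). The value for *Celf2* thus rests on 1 of 2 probe sets, and the mean of both gave -0.49.

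**Figure D3:**
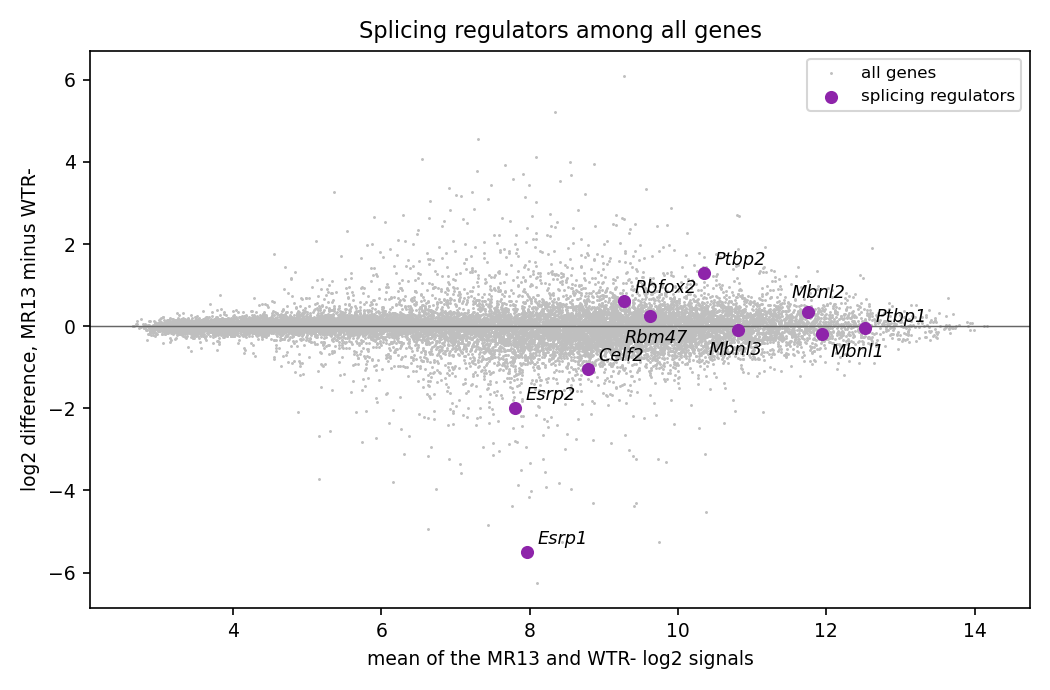
Log2 difference, MR13 minus WTR- (y axis), against the mean of the MR13 and WTR- log2 signals (x axis) for all 19933 genes (grey), with the 10 splicing regulators in purple. *Esrp1* lies at -5.50, with an MR13 signal not shown to be above background, while *Mbnl1*, *Mbnl3* and *Ptbp1* lie close to 0 among the bright genes.

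For the regulators with a listed start site, the sequence before the start was read from RefSeq promoter windows of assembly GRCm38.p6. These were available for 7 of the 10 genes, with 14 start sites (*Rbm47*, *Mbnl1*, *Mbnl2*, *Mbnl3*, *Ptbp1*, *Ptbp2* and *Celf2*). *Esrp1*, *Esrp2* and *Rbfox2* were not matched. The 250 bases before the start are printed for *Ptbp2*, which had the largest rise, at chr3:119783389-119783638 on the minus strand, and for the outermost start of *Rbm47*, the epithelial regulator that did not fall, at chr5:66151955-66152204 on the minus strand. Capitals mark the GC box GGGCGG on either strand, a site of SP-type factors.
Ptbp2: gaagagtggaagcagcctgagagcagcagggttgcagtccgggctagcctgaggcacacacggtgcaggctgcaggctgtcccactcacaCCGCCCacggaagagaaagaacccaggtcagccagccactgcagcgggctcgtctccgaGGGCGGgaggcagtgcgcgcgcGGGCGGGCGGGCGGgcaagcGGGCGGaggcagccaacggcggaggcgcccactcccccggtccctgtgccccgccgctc
Rbm47: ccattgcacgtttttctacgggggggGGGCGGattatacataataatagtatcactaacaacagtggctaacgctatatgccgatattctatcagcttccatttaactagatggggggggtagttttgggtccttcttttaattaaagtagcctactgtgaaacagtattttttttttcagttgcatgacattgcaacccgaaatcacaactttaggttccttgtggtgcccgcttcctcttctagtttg
The *Ptbp2* window held 6 matches, some overlapping each other, with 72.4% G and C, and the *Rbm47* window 1 match with 41.6% G and C. The other 2 *Rbm47* windows held none. Of the 14 windows of these genes 6 held the motif, and of all 32851 windows of this length 32.7% did. The E-box CACCTG, searched on both strands as the site to which ZEB and SNAI repressors bind, was in none of the 14 windows and in 17.2% of all windows. A match is a string of letters and was not tested as a binding site.

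Transcription factors that act on epithelial genes changed in both directions. Of 14 listed factors, 3 rose and 7 fell, against 17.0% and 20.6% of all genes, with a median of -0.13. The calls made up 71.4% of the list, beside 37.6% of all genes. *Grhl2*, a grainyhead factor that activates epithelial genes, fell to 7.49 ± 0.08 in MR13, against 8.80 ± 0.06 in WTR- (SD, n = 3 each), a log2 difference of -1.31 (SE 0.06, adjusted p = 5.62e-07 by limma). The OVO-type factors *Ovol1* (-0.97) and *Ovol2* (-0.51), which restrain EMT, also fell. Of the 5 ZEB and SNAI repressors of epithelial genes, 2 rose and 3 fell. *Zeb2* rose by 1.30 (9.38 ± 0.05 in MR13 and 8.09 ± 0.07 in WTR-, SD, n = 3 each) and *Snai1* by 1.03. *Snai2* fell by 0.48 (adjusted p = 0.00031), *Zeb1* by 0.37 (adjusted p = 0.0014) and *Snai3* by 0.24 (adjusted p = 0.027). The mean signals of *Snai2*, 4.62 in MR13 and 5.10 in WTR-, lay below the MR13 mean of *Esrp1* (5.21). *Snai2* is therefore not shown to be above background in either line, and its fall describes signal only. The call of *Snai3* was lost without any 1 of the MR13 arrays, without WTR- replicate 1 or 3 and in the unmoderated test. *Twist1* rose by 0.22 and lost its call without MR13 replicate 2 or 3, without WTR- replicate 1 or 2 and in the unmoderated test.

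Genes known to carry exons under ESRP control were measured as whole genes for 11 of 12 listed members. Of these, 6 were higher and 2 lower in MR13 (median 0.18, smallest -0.45, largest 1.27), against 17.0% and 20.6% of all genes. *Arhgef11*, 1 of the 6, lost its call with a replicate block and in the unmoderated test. It also lost it without MR13 replicate 2 or 3 and without WTR- replicate 1 or 3. *Enah*, an actin regulator with an epithelial exon, had signals of 11.15, 11.20 and 11.13 in MR13, against 9.88, 9.89 and 9.88 in WTR-, a 2.41-fold higher signal (adjusted p = 1.76e-07). The 3 MR13 arrays were all above the WTR- arrays. Other members differed by less. *Ctnnd1*, which encodes p120 catenin, rose by 0.38, *Lrrfip2* by 0.47 and *Fgfr2* by 0.34, whereas *Slk* fell by 0.45 and the hyaluronan receptor *Cd44* by 0.24.

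Other regulators of cell-type splicing were called about as often as genes in general. Of 35 measured, 7 rose and 5 fell (median 0.07), with 6 to 11 rises and 4 to 5 falls across the alternative fits. The calls made up 34.3% of this list, beside 37.6% of all genes. The median size of the difference was 0.13 for the list and 0.13 for all genes. *Rbm24* lost its call without any 1 of the MR13 arrays and without WTR- replicate 2 or 3. It also lost it in the unmoderated test and with another eBayes prior. *Msi1* lost its call in the unmoderated test and without MR13 replicate 1. Of the 35, 1 passed 2-fold. That gene was *Rbpms*, whose protein sets smooth muscle splicing, with signals of 12.16, 12.13 and 12.16 in MR13, against 9.48, 9.43 and 9.41 in WTR-. Every MR13 array was far above every WTR- array, and the log2 difference was 2.71 (SE 0.05, adjusted p = 2.67e-09), or 6.56-fold. *Zfp36l1*, which destabilises AU-rich messengers, rose by 0.58 and *Celf4* by 0.56. *Tia1* (-0.47), *Rbms2* (-0.33) and *Rbms3* (-0.32) fell. *Rbms3* averaged 5.17 in MR13 and 5.49 in WTR-. It is not shown to be above background in MR13, so its fall describes signal only. *Rbfox2* was called while its relatives *Rbfox1* and *Rbfox3* were not, but the difference between them was not tested.

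General splicing factors changed by less than 2-fold. Of 12 measured SR proteins, which bind exonic enhancers, 2 rose (*Srsf4* by 0.43 and *Srsf9* by 0.25) and *Srsf11* fell by 0.63. With the dimmest probe set of each gene, 3 rose and 2 fell. *Srsf3* was then called as a rise of 0.38 and *Tra2a* as a fall of 0.44. With the brightest probe set neither was called, and their differences were -0.11 and 0.13. Among 6 kinases of SR proteins, *Srpk1* (-0.44), *Clk4* (-0.29) and *Clk1* (-0.27) fell and *Srpk2* rose by 0.18. *Clk1* and *Clk4* lost their calls in the unmoderated test, and *Srpk2* without MR13 replicate 3 or WTR- replicate 1 or 2. Without WTR- replicate 3, *Srpk3* was also called, as a rise. Of 18 hnRNP genes, 2 rose (*Pcbp2* by 0.28 and *Hnrnph1* by 0.20) and 3 fell (*Hnrnpc* by 0.33, *Hnrnpf* by 0.21 and *Hnrnpdl* by 0.21), and *Hnrnph1* lost its call without WTR- replicate 2. The rises among hnRNP genes numbered 1 without that array and 4 without WTR- replicate 1. They numbered 5 after quantile normalization or without the dimmest 30% of genes, and 6 with another eBayes prior. Of 27 core spliceosome genes, 7 rose and 8 fell (median 0.05). After quantile normalization 9 rose, and with another eBayes prior 10 rose. The rises came to 4 with a replicate block, without any 1 of the MR13 arrays and without WTR- replicate 2 or 3, since *Sf3b1*, *Snrnp70* and *Cdc5l* lost their calls in each of these. The helicase *Snrnp200* (0.53), *Prpf6* (0.38) and *Prpf4* (0.28) were highest, and *Sf3b2* (-0.40), *Prpf19* (-0.28) and *Snrpd3* (-0.27) lowest. Over these 5 lists, 39 of 98 genes were called, or 39.8% beside 37.6% of all genes, and the median size of their differences was 0.15 beside 0.13.

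**Figure D4:**
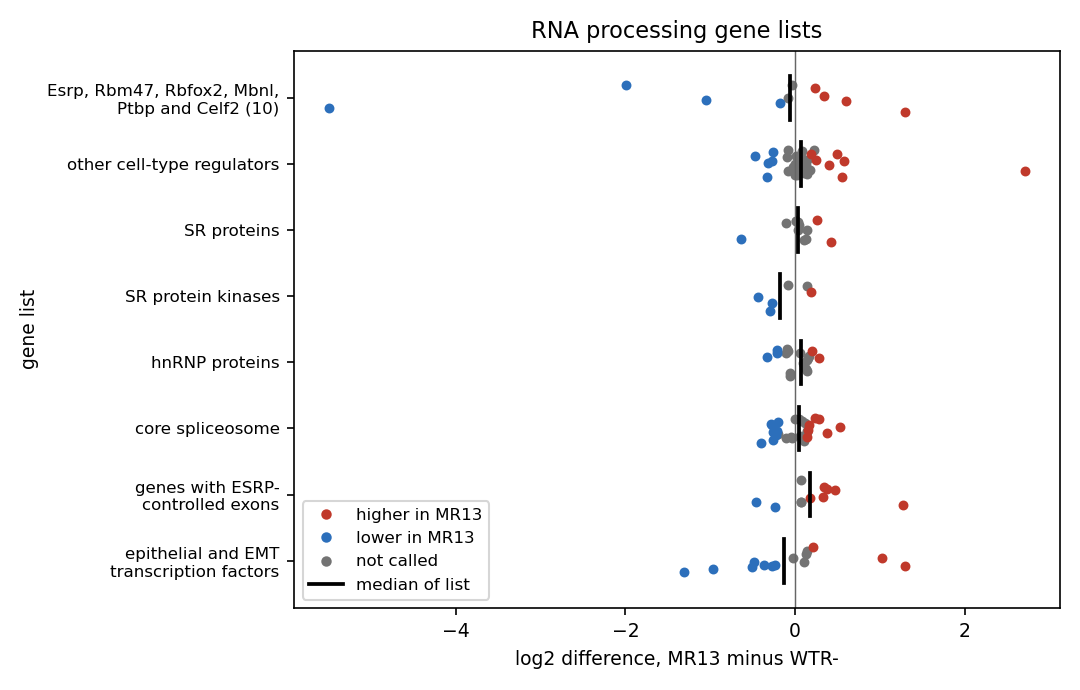
Measured genes of 8 lists (y axis) placed by their log2 difference, MR13 minus WTR- (x axis). Points are single genes, red where higher, blue where lower and grey where not called, black bars are medians, and points are spread vertically for legibility. *Esrp1* lies at -5.50 in the top list and *Rbpms* at 2.71 in the second, while SR, hnRNP and core spliceosome genes stay between -0.63 and 0.53.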

How the data were processed

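Total RNA of 3 MR13 and 3 WTR- wells was biotin-labelled and run on Affymetrix Mouse Gene 1.0 ST arrays, 1 for each well. The deposited values were log2 signals that the authors had normalized between arrays, with array medians of 6.57 to 6.62. The submitters' processing notes name the packages affy and limma, and versions, summarization and normalization methods are not given in the sources used here. Of 28350 probe sets, 21780 had 1 gene symbol, and for each of 19933 genes the brightest probe set by its mean on 6 arrays was kept. The symbols of 19851 genes were checked through RefSeq (GRCm38.p6), and 0 changed. The difference MR13 minus WTR- was fitted with limma 3.58.1 in R 4.3.3 (lmFit and eBayes, no covariate, two-sided), with Benjamini-Hochberg adjustment over all genes and calls at an adjusted p under 0.05. No detection calls were used, and the number of arrays limits the precision. The scripts were tested on simulated data. The 10 genes, the lists and the tests were chosen with earlier results of these data known. Beside the 10 genes, the text names from each list up to 3 called genes in each direction with the largest differences and no overlap between groups, and 10 genes fixed by name. Of the marker lists only single genes are named, and these, like *Snai2*, *Snai3*, *Sf3b1*, *Snrnp70*, *Cdc5l* and other genes outside the rule, were chosen after their values were seen.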

Additional observations from a re-analysis of the deposited data

How the results depend on the processing

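Of the 10 regulators, 7 kept their direction and their side of the threshold under all 14 alternative fits. These were quantile normalization, centring on the median, leaving out the dimmest 30% of genes, other choices among a gene's probe sets, another eBayes prior, a replicate block, a plain t-test and leaving out each array. The exceptions were *Mbnl1*, which lost its call without MR13 replicate 3 or WTR- replicate 1, and *Celf2*, whose difference turned to 0.066 (adjusted p = 0.66) when its dim probe set was used. *Ptbp1*, not called in any of them, changed sign to 0.047 after quantile normalization. Between 7 and 8 of the 10 were called without 1 array (8 with all), and 5 at 1.5-fold and 4 at 2-fold, by construction of the minimum. Over all genes, 7497 were called, 6716 to 6971 without 1 array, 2193 at 1.5-fold and 810 at 2-fold. Quantile normalization called 3940 genes higher and 3836 lower, against 3386 and 4111. The other splicing lists gave 33 to 53 calls across the alternatives, which for these lists were chosen after seeing the data. Same-numbered arrays of the groups correlated at r = 0.128, -0.00124 and 0.182 in their deviations from the group means. Arrays with different numbers correlated at r = -0.197 to 0.0529. With 3 arrays in each group, these values cannot decide whether the numbers pair the samples. The replicate block called 7442 genes and 8 of the 10. The probes' signal over background is unknown, which limits the values of dim probe sets. Among these are *Esrp1* and *Rbms3* in MR13, *Dcn* and *Ly6g* in WTR-, *Snai2* in both lines and the second *Celf2* probe set.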
